A study of Mus musculus with 9 samples.

Results

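The Wnt ligands, the Frizzled receptors and their co-receptors were followed across 3 cell populations sorted from neonatal mouse skin. The members were all genes of the array platform whose symbol is Wnt or Fzd with a number (and the letter a or b where there is one), together with Lrp5, Lrp6, Ror1, Ror2 and Ryk. The rule itself is by gene name; the group was picked for description with earlier results of these data known. It gave 34 genes of 18193 measured: 19 Wnt ligands, 10 Frizzleds, 2 LRP co-receptors and 3 genes of the Ror and Ryk group. Each was represented by its probe set (a group of short probes for 1 transcript) with the highest mean over the arrays.

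The cells came from the back skin of 3 mice, numbered 2, 4 and 5, at postnatal day 2, with about 50000 cells collected per population. Each mouse gave 1 array per gate. Gate R1 (GFP-CD133-) was the dermal pool from which papilla cells had been left out, gate R2 (GFP-CD133+) held cells described as zigzag dermal papillae, and gate R3 (GFP+CD133+) held cells described as papillae of guard, awl and auchene hairs. The strain and the transgene are not named in the labels, which give no treatment either. Prom1 encodes CD133, and the GFP of these mice is known to report Sox2. R1 is a mixed negative population rather than a single cell type.

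Wnt proteins are lipid-modified signals that act over short distances. They bind the extracellular cysteine-rich domain of Frizzleds, seven-pass membrane receptors, and in the beta-catenin branch also engage Lrp5 or Lrp6, which stabilises beta-catenin and lets it act with TCF and LEF factors on target genes. Ror1, Ror2 and Ryk are single-pass receptors best known from responses that do not run through beta-catenin, with Wnt5a as the classic ligand. The dermal papilla is the mesenchymal cluster at the base of the hair follicle, where Wnt signals pass between epithelium and mesenchyme during follicle formation and hair growth.

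All values below are log2 expression values of a probe set, with array medians from 6.13 to 6.20, and 3 arrays per gate limit the precision. As a guide to background served 43 probe sets of olfactory receptors, taken here as mostly silent in these cells, which was not tested. Their 95th percentile was 5.03 to 5.47 per array. Arrays of a gate correlated across probe sets at 0.977 to 0.985, above every pair of arrays from different gates (0.951 to 0.974); probe sets are not independent replicates. Prom1 was higher in both CD133+ gates than in R1, and Sox2 was highest in the GFP+ gate, a check of the labels and no finding. Prom1 averaged 7.43 ± 0.36 over the R1 arrays, 11.85 ± 0.04 over R2 and 10.32 ± 0.19 over R3, and Sox2 averaged 4.19 ± 0.34, 7.08 ± 0.61 and 10.66 ± 0.12 (SD, n = 3). Sox2 was also higher in R2 than in R1, by 2.90, although both gates are GFP-. Its R1 arrays (3.81 to 4.45) lay under the background guide, so 2.90 is not an exact size. Prom1 was lower in R3 than in R2, with a difference of -1.54, although both are CD133+. For RNA quality, the 3' probe set of beta-actin exceeded the 5' one by 0.043 to 0.069 in R1 and by 0.106 to 0.216 in the other gates; its part in the results was not tested. In RNA from sorted populations, fewer cells of a type and less RNA per cell cannot be told apart.

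Of the 34 genes, 13 were called in at least 1 comparison of gates and 21 in none, 38.2% of members beside 23.2% of all genes called in at least 1 (limma with Benjamini-Hochberg adjustment over all 18193 genes; called at an adjusted p under 0.05). In R2 against R1, 3 members were higher and 5 lower, 23.5% of members beside 13.1% of all genes (6.89% higher, 6.16% lower). In R3 against R1, 4 were higher and 7 lower, 32.4% beside 18.7% of all genes (7.90% higher, 10.8% lower). In R3 against R2, 1 was higher and 3 lower, 11.8% beside 5.03% (1.97% higher, 3.06% lower). The members' median differences were -0.12, -0.14 and -0.05 (log2), those of all genes -0.02, -0.01 and -0.01. The comparisons share arrays pairwise, so their values stand side by side and are not independent. The count of 8 members in R2 against R1 was 4 without R1 replicate 2 or R1 replicate 4 and 5 without R3 replicate 4 or any 1 of the R2 arrays, and the count of 4 in R3 against R2 was 2 without R3 replicate 4. Replicates carry the number of their mouse.

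**Figure D1:**
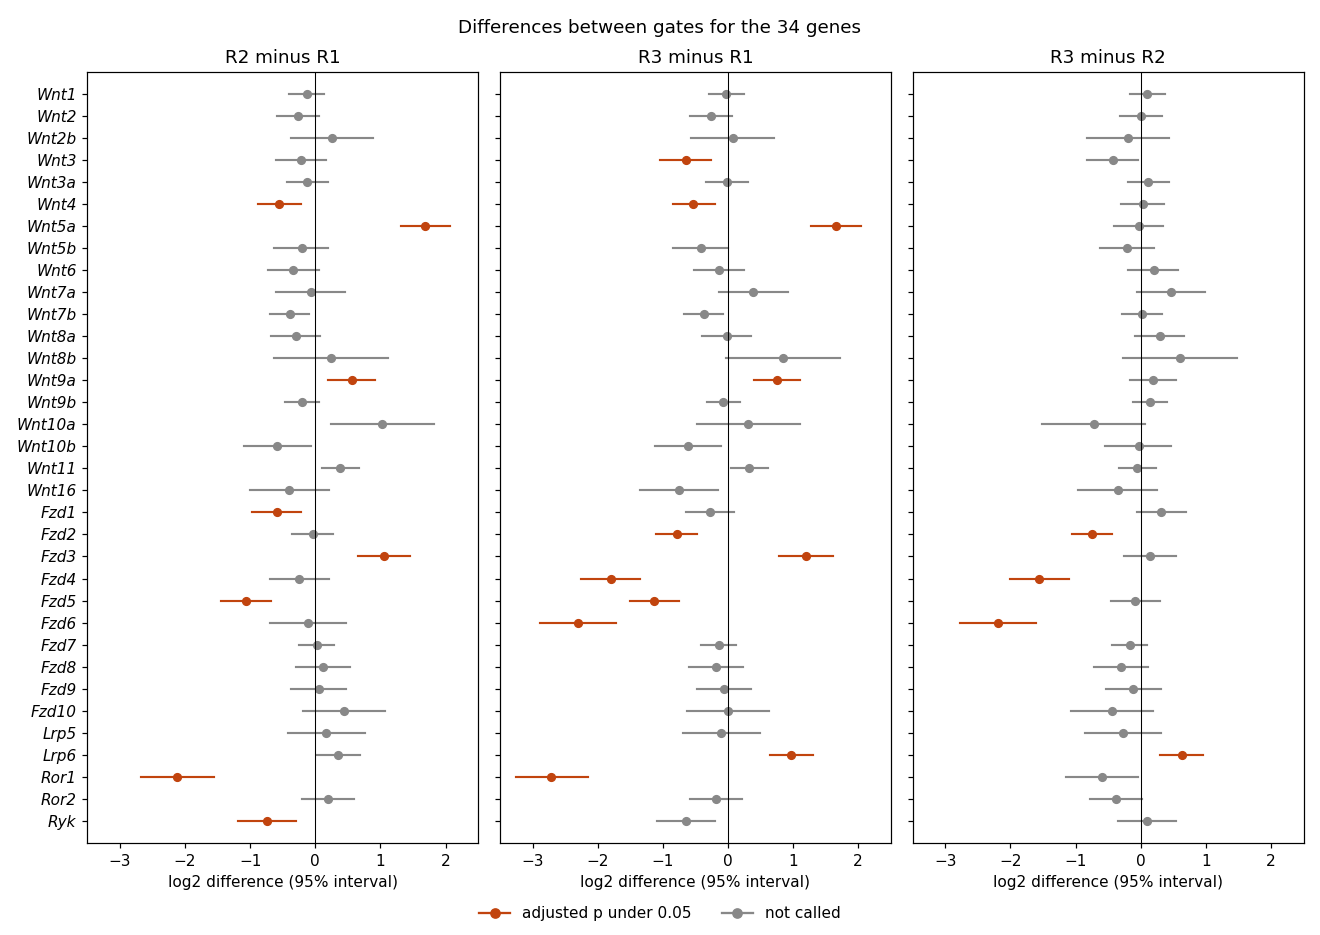
Log2 differences between gates (x axis) for the 34 genes (y axis), with 95% intervals; red marks an adjusted p under 0.05 and grey the rest. Wnt5a and Fzd3 lie to the right in both comparisons with R1 and Ror1 and Fzd5 to the left, while Fzd4 and Fzd6 lie to the left in both comparisons with R3.

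Among ligands, Wnt5a stood out by the size of its difference: it was 3.23-fold higher in R2 and 3.16-fold higher in R3 than in R1. Wnt5a is a ligand of mostly beta-catenin-independent signalling that guides cell movement and polarity. Its values in mice 2, 4 and 5 were 9.54, 9.73 and 9.59 in R1, 11.00, 11.36 and 11.58 in R2, and 11.38, 11.38 and 11.07 in R3. Every array of R2 and R3 lay above every array of R1, and those of R2 and R3 overlapped. The log2 differences were 1.69 (standard error 0.17, adjusted p = 0.0002) in R2 and 1.66 (standard error 0.17, adjusted p = 0.000157) in R3. Between R3 and R2 the difference was -0.03, with an interval from -0.41 to 0.34. All 4 probe sets of Wnt5a were called higher in both gates when tested singly, by 1.69 to 2.00 in R2 and 1.42 to 1.75 in R3.

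Wnt9a, a relative of Wnt9b known from joint formation, was also higher, by less. It read 7.26, 7.51 and 7.74 in R1, 8.22, 7.85 and 8.11 in R2, and 8.20, 8.20 and 8.36 in R3. No R1 array reached the lowest array of R2 or R3. The differences were 0.56 (standard error 0.16, adjusted p = 0.0463) in R2 and 0.75 (standard error 0.16, adjusted p = 0.00908) in R3. The call in R2 was lost with the mouse as a fixed block (adjusted p = 0.052), and without R1 replicate 2 or 4, R2 replicate 2 or 5, or any R3 array (0.0557 to 0.142). It was lost under 15 of 19 alternatives, among them both rescalings, the 6 arrays alone and the mean of the probe sets. The call in R3 was also lost with the mean of the probe sets (adjusted p = 0.0672). Its other probe set, 1425889_at, read 3.64, 3.47 and 3.54 in the 3 gates, under the background guide, differed by -0.16 and -0.10, and was not called.

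Wnt4 was lower in both papilla gates. It is a ligand known from kidney, ovary and mammary gland and also from skin epithelium. Its values were 7.46, 7.22 and 7.24 in R1, 6.99, 6.61 and 6.67 in R2, and 6.95, 6.69 and 6.70 in R3. The R1 arrays all lay above the others, and R2 and R3 overlapped. Wnt4 fell by 0.55 in R2 (standard error 0.15, adjusted p = 0.0369) and by 0.53 in R3 (standard error 0.15, adjusted p = 0.0341). The R2 call was lost without any 1 of the R1 arrays, R2 replicate 4 or 5, or R3 replicate 4 (adjusted p 0.0529 to 0.128), and the R3 call without any 1 of the R1 arrays or R3 replicate 4 or 5 (0.0598 to 0.108). The second probe set, 1441687_at, was lower by 1.37 in R3 (adjusted p = 0.0237) and read -0.92 in R2 (adjusted p = 0.127, not called).

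Wnt3, a ligand of the beta-catenin branch known from limb and follicle epithelium, was the last ligand called, at levels under the background guide on all 9 arrays. It read 3.83, 3.55 and 3.34 in R1, 3.44, 3.24 and 3.39 in R2, and 3.11, 2.62 and 3.04 in R3. The R3 arrays lay under those of R1 by 0.65 (standard error 0.17, adjusted p = 0.0286), a difference between dim signals. It was lost without R1 replicate 2 or 4 or R3 replicate 4 (0.0689 to 0.0949).

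Between the papilla gates, 0 of 19 ligands were called by limma, beside 5.03% of all genes. Of the 19, 1 (Wnt3) had an unadjusted p under 0.05, and 17 had an interval within 1 log2 unit of 0 on either side. Of all 18193 genes, 3285 had such a p and 15112 such an interval. With 19 genes, these counts do not set the ligands apart from all genes. Of the 15 ligands called in no comparison, Wnt1, Wnt2 and Wnt8a stayed at or under the background guide on every array, between 2.87 and 5.40. Wnt2b (5.01 to 6.11), Wnt7a (4.49 to 5.58), Wnt7b (5.11 to 5.70), Wnt8b (4.17 to 6.13) and Wnt9b (5.38 to 5.78) lay around it. Wnt3a (5.84 to 6.34), Wnt6 (6.65 to 7.45), Wnt5b (7.59 to 8.29) and Wnt11 (7.50 to 8.11) lay above it in each gate.

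Wnt10a and Wnt10b, ligands known from the hair placode, gave differences with wide intervals. Wnt10a read 5.59, 5.37 and 4.37 in R1, 6.52, 5.80 and 6.11 in R2, and 4.85, 5.83 and 5.59 in R3. The R2 arrays lay above those of R1, with a difference of 1.03 (interval 0.24 to 1.83) that was not called (adjusted p = 0.0885). In R1 and in R3, Wnt10a was near the background guide, above it on 2 of 3 arrays in each. Wnt10b read 6.79, 6.71 and 6.14 in R1, 6.14, 6.14 and 5.62 in R2, and 6.14, 6.04 and 5.62 in R3, so that mouse 5 was lowest in each gate. Its differences were -0.58 in R2 (adjusted p = 0.133) and -0.62 in R3 (adjusted p = 0.093). With the mouse as a fixed block Wnt10b was called lower in both, at adjusted p = 0.0142 and 0.00802, and without R1 replicate 5 in R3 at 0.0347. Wnt16 (5.28 to 6.54) differed by -0.75 in R3 against R1 (adjusted p = 0.0851), called without R1 replicate 4 (0.0108). Wnt7b differed by -0.39 in R2 against R1 (adjusted p = 0.0928), called without R2 replicate 5 (0.0382).

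**Figure D2:**
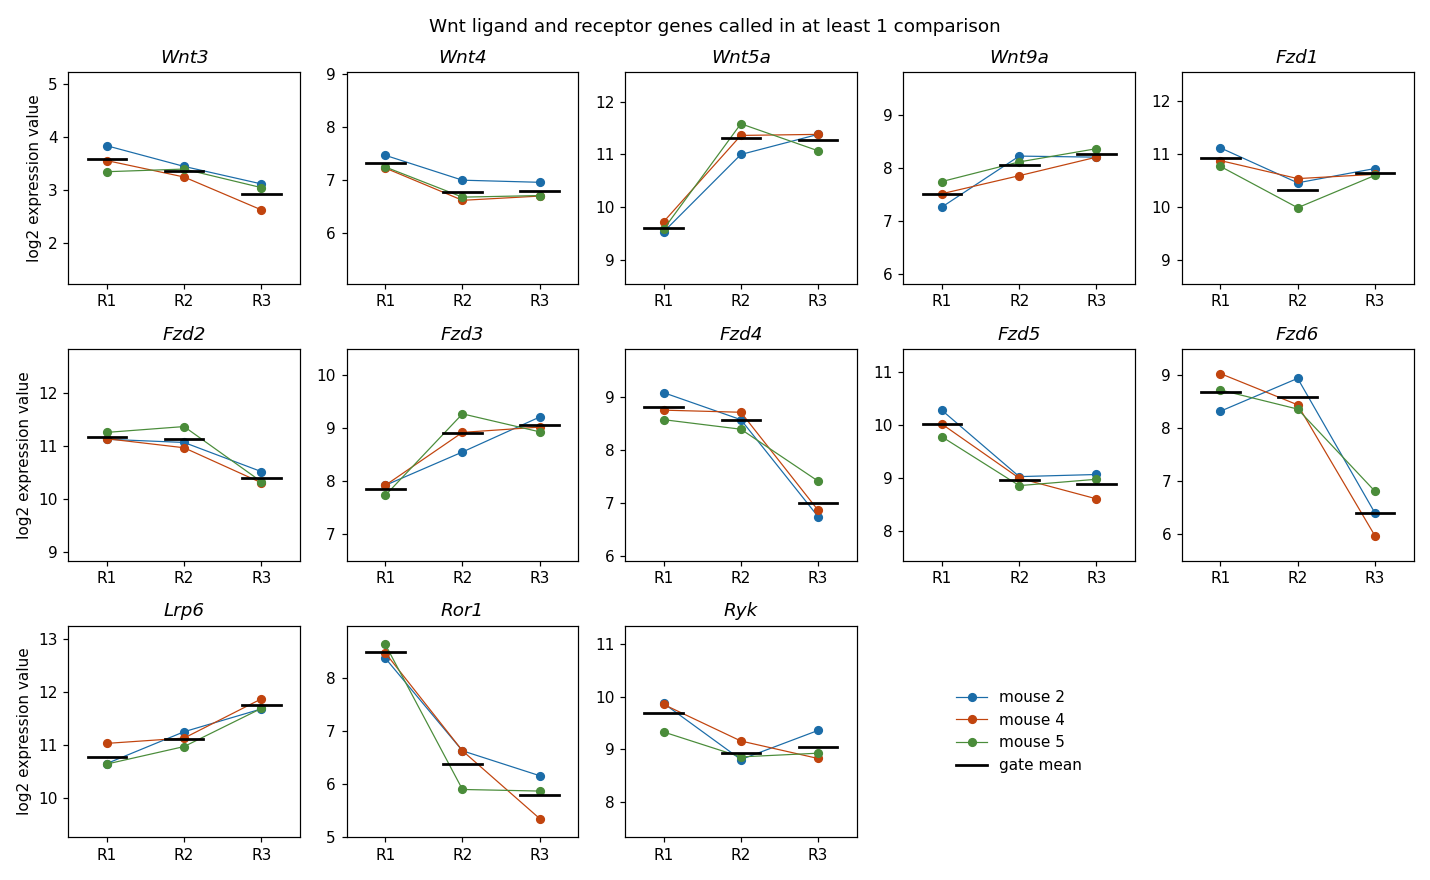
Log2 expression value (y axis) in gates R1, R2 and R3 (x axis) for the 13 genes called in at least 1 comparison; points are single arrays, coloured lines join the arrays of a mouse, black bars are gate means, and each panel spans the same number of log2 units. The R3 arrays of Fzd4 (6.74 to 7.41) and Fzd6 (5.97 to 6.81) lie under those of both other gates, and the R1 arrays of Ror1 (8.37 to 8.63) above.

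Of the 10 Frizzleds, 6 were called in at least 1 comparison, beside 4 of the 19 ligands and 23.2% of all genes; the difference between these counts was not tested. In R3 against R2, 3 Frizzleds were lower (Fzd2, Fzd4 and Fzd6) and 0 were higher. In R3 against R1, 1 was higher and 4 lower, and in R2 against R1, 1 was higher and 2 lower.

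By the chosen probe sets, Fzd6 had the largest difference of the 10. It is known for orienting hair follicles through planar cell polarity. Its values were 8.32, 9.03 and 8.72 in R1, 8.94, 8.44 and 8.36 in R2, and 6.40, 5.97 and 6.81 in R3. R1 and R2 overlapped, and each R3 array lay far below both. Fzd6 was 4.92-fold lower in R3 than in R1 (log2 difference -2.30, standard error 0.26, adjusted p = 0.000292) and 4.55-fold lower than in R2 (log2 difference -2.19, standard error 0.26, adjusted p = 0.00112). Between R2 and R1 the difference was -0.11. With the mean of its 3 probe sets the differences in R3 were -1.03 and -1.31. By that rule Fzd4 differed more from R1 in R3, by -2.2. Of its other probe sets, 1448662_at, near the background guide in each gate, was lower in R3 by 0.55 against R1 and by 0.80 against R2 and was called in both, while 1458904_at, dim in every gate, was not called (-0.25 and -0.93) and read 0.67 higher in R2 than in R1 (adjusted p = 0.372).

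Fzd4, a receptor for Norrin as well as for Wnt ligands and known from endothelial cells of retina and ear, followed the same order of gates. It read 9.08, 8.75 and 8.57 in R1, 8.57, 8.71 and 8.39 in R2, and 6.74, 6.86 and 7.41 in R3. The R3 arrays lay below all others. Fzd4 was 3.49-fold lower in R3 than in R1 (log2 difference -1.80, standard error 0.20, adjusted p = 0.000287) and 2.94-fold lower than in R2 (-1.56, standard error 0.20, adjusted p = 0.00193). In R2 against R1 the chosen probe set differed by -0.25 and was not called (adjusted p = 0.498), while 1449416_at was lower by 1.04 (adjusted p = 0.00601 singly) and the mean of the 3 probe sets was called lower as well (adjusted p = 0.00689), so the place of R2 depends on the probe set. The third, 1419301_at, was called lower in R3 against R1 by 2.16 and not called in R3 against R2 (-1.15, adjusted p = 0.0627).

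Fzd2, a receptor used by Wnt5a among others, was lower in R3 by a smaller amount. It read 11.12, 11.13 and 11.25 in R1, 11.06, 10.96 and 11.36 in R2, and 10.51, 10.30 and 10.32 in R3. R1 and R2 overlapped and R3 lay below both. The differences were -0.79 against R1 (standard error 0.14, adjusted p = 0.00354) and -0.75 against R2 (standard error 0.14, adjusted p = 0.0131). The second call was lost without R3 replicate 4 (0.0571) and with the mean of the probe sets (0.141). Its 1418533_s_at was called in R3 against R1 alone (-0.95) and 1418532_at in neither, with the same sign.

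Fzd3 was the Frizzled that was higher, in both papilla gates. It acts with Fzd6 in planar cell polarity and in axon guidance. Its arrays read 7.92, 7.92 and 7.73 in R1, 8.55, 8.92 and 9.27 in R2, and 9.21, 9.02 and 8.93 in R3. R2 and R3 overlapped, and both lay above R1. Fzd3 was 2.08-fold higher in R2 (log2 difference 1.06, standard error 0.18, adjusted p = 0.0045) and 2.30-fold higher in R3 (1.20, standard error 0.18, adjusted p = 0.00157), with 0.14 between R3 and R2 (interval -0.26 to 0.55). All 6 probe sets were higher in sign; 5 were called in R2 and 4 in R3, with 1421157_at called in neither and 1434788_at in R2 alone. Fzd3 and Fzd6 therefore differed in opposite directions in R3 against R1.

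Fzd5, a receptor needed in yolk sac vessels and intestinal Paneth cells, was lower in both papilla gates. It read 10.28, 10.02 and 9.78 in R1, 9.03, 9.0 and 8.86 in R2, and 9.07, 8.61 and 8.98 in R3. All R1 arrays lay above the others. Fzd5 was 2.08-fold lower in R2 (log2 difference -1.06, standard error 0.17, adjusted p = 0.00311) and 2.19-fold lower in R3 (-1.13, standard error 0.17, adjusted p = 0.00146). R2 and R3 differed by -0.08. Its second probe set, 1422937_at, read -0.46 and -0.79 against R1 and was not called when tested singly.

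Fzd1, a receptor of the beta-catenin branch close in sequence to Fzd2 and Fzd7, was lower in R2. It read 11.12, 10.88 and 10.77 in R1, 10.46, 10.54 and 9.99 in R2, and 10.73, 10.62 and 10.60 in R3. The R2 arrays lay under all others. In R2 against R1 it fell by 0.59 (standard error 0.17, adjusted p = 0.046), and the call was lost without any 1 of the 9 arrays (0.0517 to 0.139). Its second probe set, 1422985_at, fell by 1.07 (adjusted p = 0.0368 singly). Against R2, R3 read 0.32 higher (interval -0.05 to 0.69), which was not called.

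The other 4 Frizzleds were called in no comparison. Fzd7 had the narrowest intervals: it ranged from 9.95 to 10.27, with differences of 0.02, -0.14 and -0.17 and intervals between -0.44 and 0.29. Fzd8 ranged from 7.44 to 8.11, Fzd9 from 5.73 to 6.34 and Fzd10 from 6.03 to 7.27. The interval of Fzd10 reached 1.07 in R2 against R1 and -1.07 in R3 against R2, so differences up to about that size are not excluded by these arrays.

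The LRP co-receptors, which bind Wnt together with Frizzled, differed from each other in their calls. Lrp6 read 10.65, 11.03 and 10.64 in R1, 11.25, 11.13 and 10.97 in R2, and 11.68, 11.87 and 11.69 in R3. R3 lay above all other arrays, and R1 overlapped R2. It was 1.96-fold higher in R3 than in R1 (log2 difference 0.97, standard error 0.15, adjusted p = 0.00158) and 1.54-fold higher than in R2 (0.63, standard error 0.15, adjusted p = 0.0415). The second call was lost without any 1 array other than R1 replicate 4 (0.0525 to 0.14). It was also lost with each array centred on its median, with the mean of the probe sets, and with every probe set tested singly (0.0557). The other probe set of Lrp6, 1451022_at, read 0.33 and 0.45 in these comparisons and was called in neither. Lrp5, known from bone mass and retinal vessels, ranged from 7.78 to 8.94 with differences of 0.17, -0.10 and -0.27, none called.

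By the chosen probe sets, Ror1 had the largest difference of all 34 genes. It is a receptor of Wnt5a known mainly from embryonic tissue. It read 8.37, 8.47 and 8.63 in R1, 6.62, 6.62 and 5.89 in R2, and 6.15, 5.34 and 5.86 in R3. Every R1 array lay above every array of R2 and R3, which overlapped. Ror1 was 4.33-fold lower in R2 (log2 difference -2.12, standard error 0.25, adjusted p = 0.000504) and 6.53-fold lower in R3 (-2.71, standard error 0.25, adjusted p = 8.58e-05). The difference between R3 and R2 was -0.59 (interval -1.15 to -0.04) and was not called (adjusted p = 0.242). All 3 probe sets were called lower in both gates, at -2.12 to -1.27 in R2 and -2.71 to -1.43 in R3. The mean of the 3 gave -2.0 in R3 against R1, less than the -2.2 of Fzd4 by the same rule, so the ranking depends on the probe set. The R3 arrays of the chosen probe set lay not far above the background guide. In R2 and R3, 1451014_at averaged 5.38 and 5.21, around the guide, and 1429312_s_at 4.29 and 4.20, under it. The folds of Ror1 are therefore not exact sizes.

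Ror2, the closer partner of Wnt5a in skeletal development, ranged from 8.37 to 9.03 and was not called: it differed by 0.19 in R2 (interval -0.20 to 0.59) and by -0.19 in R3 (interval -0.58 to 0.21). Thus the ligand Wnt5a read higher in the papilla gates, Ror1 lower, and the interval of Ror2 took in 0. Ryk, an atypical receptor with an inactive kinase domain, read 9.87, 9.85 and 9.33 in R1, 8.81, 9.16 and 8.86 in R2, and 9.36, 8.83 and 8.93 in R3. R2 lay under R1, while R3 overlapped R1 at its highest array. Ryk fell by 0.74 in R2 (standard error 0.20, adjusted p = 0.0387), a call lost without R1 replicate 2 or 4 or any 1 of the R2 arrays (0.0516 to 0.119). In R3 it differed by -0.64 at an adjusted p of 0.0505, and was called under 8 of 19 alternatives (0.0214 to 0.0433), among them the mouse as a random block (0.0433), both rescalings, and leaving out R1 replicate 5 (0.0214) or R3 replicate 2 (0.0287). Its probe sets 1426388_s_at and 1447400_at read -0.39 and -0.25 in R2 and were not called.

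**Figure D3:**
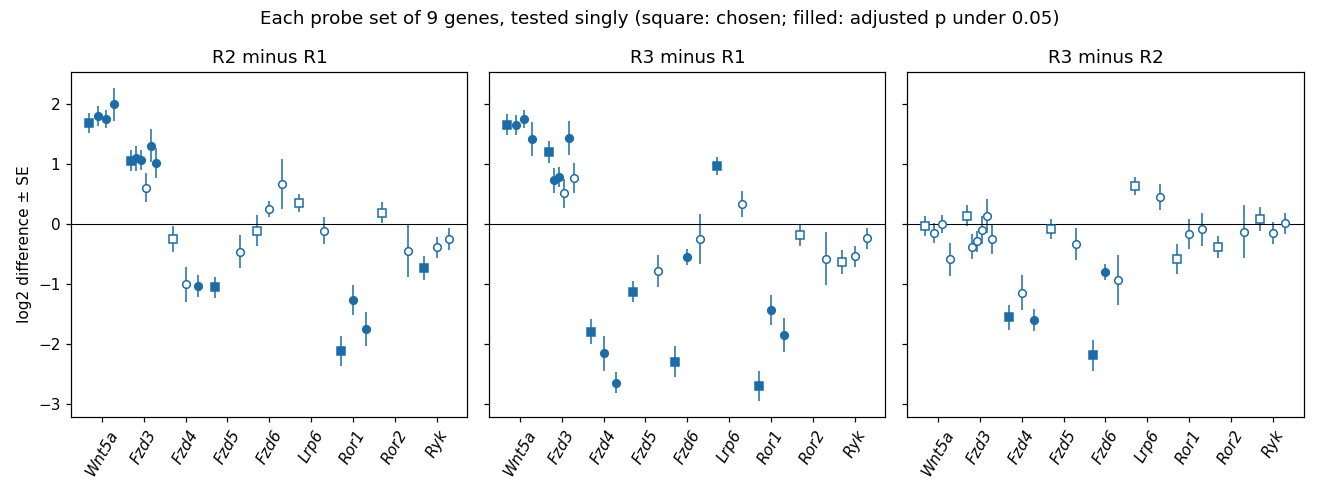
Log2 difference (y axis) of every probe set of 9 genes (x axis) in the 3 comparisons of gates; bars are standard errors, squares the chosen probe sets, and filled symbols had an adjusted p under 0.05 when tested singly. In both comparisons with R1, the probe sets of Wnt5a (1.42 to 2.00) and Fzd3 (0.51 to 1.44) lie above 0 and those of Ror1 (-2.71 to -1.27) below it.

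The promoters of called members are shown because TCF and LEF factors act on Wnt target genes and Sox2 read highest in the R3 gate. The RefSeq promoter table used (GRCm38.p6) has entries for 8 of the 13 called genes: Wnt3, Wnt4, Wnt9a, Fzd1, Fzd4, Fzd5, Ror1 and Ryk. The window from 250 bases before to 50 bases after the start site was searched on both strands for the TCF/LEF core CTTTGAA or CTTTGAT and for the SOX core ACAAAG or ACAATG; the cores share letters but were counted apart. The TCF/LEF core was in 0 of the 8, and 8.65% of 32851 promoters hold it. The SOX core was in 2 of the 8, and 28.6% of all promoters hold it: in Fzd1 it starts 37 bases before the start site and in Wnt3 it lies 18 bases after it. The GC content of the 8 windows ran from 54.0% (Fzd1) to 84.3% (Wnt4), with a median of 70.2% beside 52.7% for all promoters. The 250 bases before the start site follow, 5′ to 3′ on the gene's strand, for the receptors with the largest changes that have an entry and for Fzd1, whose SOX core match is in capitals. They lie at chr4:100095541-100095790 (plus strand) for Ror1, chr7:89404116-89404365 (plus strand) for Fzd4, chr1:64737751-64738000 (minus strand) for Fzd5 and chr5:4758217-4758466 (minus strand) for Fzd1.
Ror1: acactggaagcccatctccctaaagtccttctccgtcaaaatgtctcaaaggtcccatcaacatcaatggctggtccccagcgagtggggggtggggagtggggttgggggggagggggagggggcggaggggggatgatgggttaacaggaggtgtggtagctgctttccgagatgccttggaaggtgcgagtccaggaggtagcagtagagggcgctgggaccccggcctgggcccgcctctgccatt
Fzd4: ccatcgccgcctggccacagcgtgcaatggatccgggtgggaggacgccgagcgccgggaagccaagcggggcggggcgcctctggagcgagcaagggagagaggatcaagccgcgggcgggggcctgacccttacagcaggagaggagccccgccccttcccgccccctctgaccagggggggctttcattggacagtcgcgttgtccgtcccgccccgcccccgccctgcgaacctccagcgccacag
Fzd5: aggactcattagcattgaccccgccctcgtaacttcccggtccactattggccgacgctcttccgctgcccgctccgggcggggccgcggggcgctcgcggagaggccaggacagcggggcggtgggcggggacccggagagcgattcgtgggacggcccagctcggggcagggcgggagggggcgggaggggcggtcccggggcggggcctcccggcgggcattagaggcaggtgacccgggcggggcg
Fzd1: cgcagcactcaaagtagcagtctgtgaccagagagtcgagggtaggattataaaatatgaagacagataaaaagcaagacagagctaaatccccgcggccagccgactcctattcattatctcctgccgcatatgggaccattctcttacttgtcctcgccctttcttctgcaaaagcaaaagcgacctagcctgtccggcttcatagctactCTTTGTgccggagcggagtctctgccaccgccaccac

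In that annotation, 4 pairs of members are neighbouring coding genes. Wnt6 and Wnt10a, and Wnt10b and Wnt1, had 0 called genes. Of Wnt3a and Wnt9a, Wnt9a was called, and of Wnt9b and Wnt3, Wnt3 was called.

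Markers of other skin cells moved with the gates, and their part in the differences above was not tested. The summed level of a list (log2 of the sum of its linear values) is given as its range over arrays. The summed level of the 10 papilla markers read 13.27 to 13.46 in R1, 14.45 to 14.46 in R2 and 14.88 to 15.15 in R3. Of the 10, 8 were called higher in R2 than in R1 (not Hhip and Vcan) and 9 in R3 than in R1 (not Sox18). In R3 against R2, 3 were called higher and 1 lower, namely Sox18, by 1.76 (adjusted p = 0.00362). The 8 fibroblast markers read 16.05 to 16.12 in R1, 15.42 to 15.62 in R2 and 15.39 to 15.44 in R3, and 4 of 8 were called lower in each papilla gate. Their sum was highest in R1, where Ror1, Fzd5 and Wnt4 were highest too.

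R1 also carried the highest sums of keratinocyte and leukocyte markers. The keratinocyte list read 14.24 to 14.82 in R1, 11.49 to 11.67 in R2 and 11.16 to 12.06 in R3, and 9 of 9 were called lower in each papilla gate. The leukocyte and mast cell list read 12.76 to 13.37, 10.40 to 10.83 and 10.28 to 10.40, with 8 of 9 called lower in each. These stand beside the members lower in R2 and R3 than in R1: Wnt4, Fzd5 and Ror1 in both, with Fzd1 and Ryk in R2 and Wnt3, Fzd2, Fzd4 and Fzd6 in R3. Melanocyte markers read 11.00 to 11.34 in R1, 9.48 to 10.09 in R2 and 9.08 to 10.01 in R3 (4 and 5 of 6 called lower), and those of skeletal muscle 8.90 to 9.25, 8.29 to 8.43 and 7.99 to 8.28 (3 and 4 of 6).

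Between the papilla gates, endothelial and glial markers went opposite ways. All 10 endothelial markers were called lower in R3 than in R2: their sum was 11.95 to 12.33 in R2, 9.91 to 10.34 in R3 and 10.16 to 10.51 in R1, and Tie1, Emcn and Robo4 were at or under the background guide on every R3 array. This stands beside the lower Fzd2, Fzd4 and Fzd6 in R3 against R2. In R2 against R1 all 10 endothelial markers were called higher, while the chosen probe sets of Fzd2, Fzd4 and Fzd6 differed by -0.04, -0.25 and -0.11 and were not called. In R3 against R1, 5 of the 10 were called lower and 2 higher (Flt1 and Kdr), while Fzd2, Fzd4 and Fzd6 were called lower. The 6 glial markers were all called higher in R3 than in R2 (8.23 to 8.87 in R2, 12.55 to 12.79 in R3 and 10.05 to 10.61 in R1), beside the higher Lrp6. In R3 against R1, 4 of the 6 were called higher, and so was Lrp6. In R2 against R1, 3 of the 6 were called lower and 0 higher, while Lrp6 read 0.35 higher and was not called. Pericyte and smooth muscle markers read 13.04 to 13.13, 12.92 to 13.06 and 12.77 to 12.99, a nearly level sum whose genes moved both ways. In R2 against R1, 2 of 8 were called higher and 4 lower, and in R3 against R1, 2 higher and 5 lower, beside the members that differ from R1. Acta2, the actin of smooth muscle, was higher by 1.28 and 1.23, while Rgs5, a pericyte marker, fell by 2.34 and 2.43. Between R3 and R2, 1 of 8 was called (lower).

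**Figure D4:**
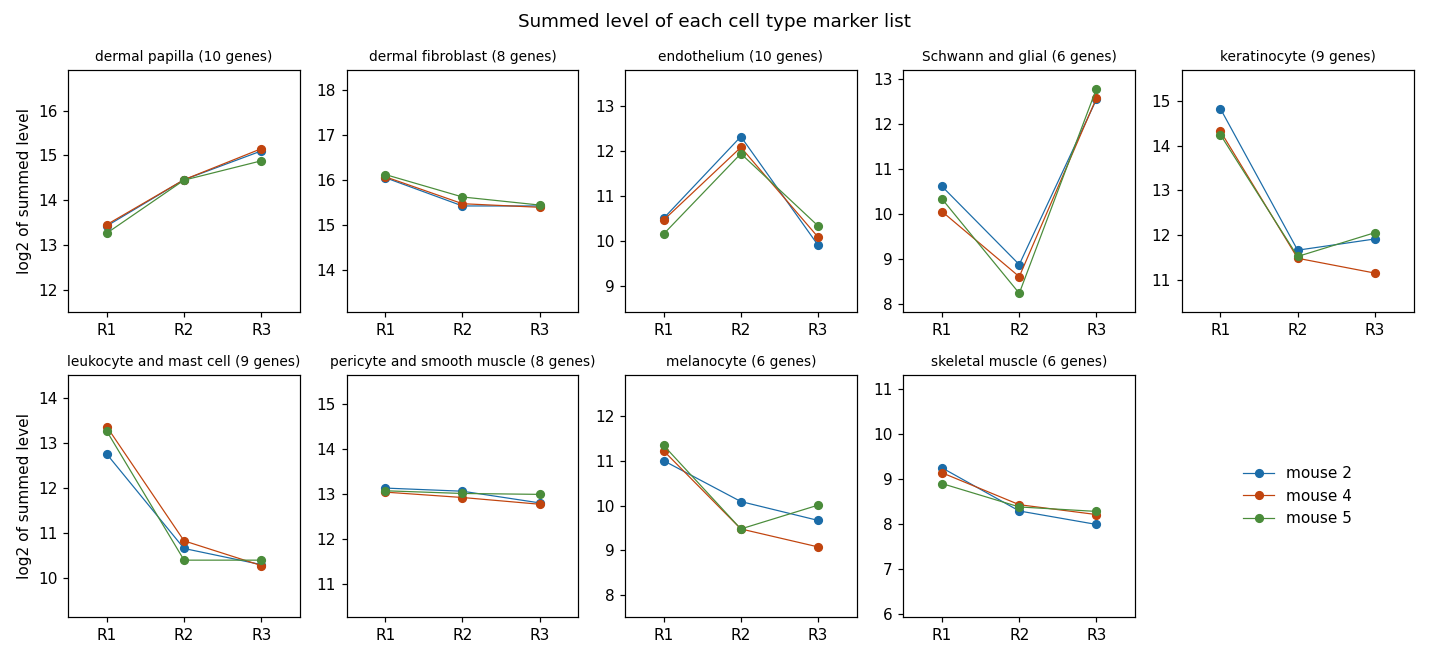
Summed marker level (log2, y axis) per array in gates R1, R2 and R3 (x axis), 1 panel per cell type; coloured lines join the arrays of a mouse. Keratinocyte and leukocyte sums are highest in R1, the endothelial sum in R2 and the glial sum in R3.

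Genes around the ligands and receptors, 62 measured in 8 lists, were also compared. In R2 against R1, 12 were higher and 7 lower; in R3 against R1, 16 higher and 13 lower; and in R3 against R2, 5 higher and 5 lower, or 30.6%, 46.8% and 16.1% of the lists beside 13.1%, 18.7% and 5.03% of all genes. Their median differences were 0.12, 0.00 and 0.00. The count of 10 in R3 against R2 dropped to 4 when R2 replicate 4 or R3 replicate 4 was left out, to 5 without R2 replicate 2, and to 6 without R3 replicate 2.

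Of 3 secretion and release genes, Wls, the carrier that takes lipid-modified Wnt proteins to the cell surface, fell in both papilla gates. It read 10.68, 10.95 and 10.69 in R1, 9.67, 9.55 and 9.72 in R2, and 9.35, 9.34 and 9.36 in R3, with no overlap between gates. It was 2.19-fold lower in R2 (log2 difference -1.13, standard error 0.12, adjusted p = 0.000292) and 2.68-fold lower in R3 (-1.42, standard error 0.12, adjusted p = 5.59e-05). Notum, an extracellular enzyme that removes the Wnt lipid, was called higher in both (adjusted p = 0.0111 and 0.00091). Its R1 arrays, 4.32 to 5.26, were at or under the background guide, beside 5.93 to 6.07 in R2 and 6.27 to 7.04 in R3, so no exact size is given. Wls thus fell in the gates where Wnt5a rose.

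R-spondins, secreted proteins that keep Frizzled and Lrp6 at the surface by removing the ligases Znrf3 and Rnf43, were measured with their receptors. Of 9 genes in the list of R-spondins and their receptors, 3 were higher and 3 lower in R2 against R1, 4 higher and 2 lower in R3 against R1, and 3 higher in R3 against R2. Rspo1 was higher by 1.70 in R2 and 2.12 in R3 (adjusted p = 2.65e-05 and 4.43e-06), and Rspo3, which is also in the papilla list, by 1.21 and 1.79. Rspo2 in R3 exceeded its level in R2 10.3-fold (log2 difference 3.36, standard error 0.30, adjusted p = 0.000224); with the mean of its probe sets the log2 difference was 1.91. The receptor Lgr5 fell by 2.01 in R2 and by 1.79 in R3. Rspo3 and Lgr4 were also higher in R3 than in R2, by 0.58 and 0.69. These calls were lost without R2 replicate 2 or 4, R3 replicate 4, R3 replicate 2 (Rspo3) or R3 replicate 5 (Lgr4), at adjusted p 0.0513 to 0.0681 and 0.0573 to 0.0729. The Rspo3 call was also lost with the mean of its probe sets.

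Secreted antagonists went both ways: of 13, 2 were higher and 1 lower in R2 against R1, 4 higher and 4 lower in R3 against R1, and 2 higher and 2 lower in R3 against R2. Frzb, a decoy that binds Wnt ligands, was higher by 1.95 in R2 and 1.72 in R3, while the related Sfrp2 fell by 1.28 and 1.57. Sfrp1, another such decoy, in R3 exceeded R2 5.88-fold (adjusted p = 0.000634). Sostdc1, a blocker of LRP co-receptors and BMP ligands, was 4.14-fold higher there (adjusted p = 0.000999), and Dkk1, which blocks Lrp5 and Lrp6, fell by 0.97 (adjusted p = 0.00925).

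Ndp, the gene for Norrin, the non-Wnt ligand of Fzd4, was called higher in R2 (adjusted p = 6.98e-05) and R3 (adjusted p = 5.74e-05) than in R1. Its arrays read 4.73 to 5.45 in R1, at or under the background guide, 7.08 to 7.24 in R2 and 7.09 to 7.12 in R3, so that no exact size against R1 is given. In the same list of 4 genes, Reck, a co-receptor for Wnt7, fell by 0.76 in R2 and by 0.83 in R3. Of the 4, limma called 0 in R3 against R2, beside 5.03% of all genes (2 of the 4 had an unadjusted p under 0.05).

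Downstream of the receptors, 0 of 9 cytoplasmic genes were called in R2 against R1 or in R3 against R2 by limma (3 and 1 had an unadjusted p under 0.05). Of all genes, 13.1% and 5.03% were called there. In R3 against R1, Apc and Gsk3b, which mark beta-catenin for destruction, were higher by 0.71 and 0.42, calls lost without R1 replicate 2 or 4, any 1 R2 array, R3 replicate 4 or 5, and for Gsk3b R1 replicate 5 (0.0552 to 0.133 and 0.0582 to 0.139). Both calls were also lost with each array centred on its median and with the 6 arrays of the comparison alone. Of 7 nuclear genes, Lef1, which is also a papilla marker, was higher by 0.89 and 1.51, and Tcf7l1 by 1.11 in R2. Of 7 feedback and target genes, 1 was higher and 1 lower in R2 against R1, 1 higher and 4 lower in R3 against R1 (Axin2, Sp5, Apcdd1 and Myc), and 0 higher and 3 lower in R3 against R2 (Axin2, Apcdd1 and Myc). Of the 4 lower in R3 against R1, Sp5 was lost without R1 replicate 2 or 4, R2 replicate 4, or R3 replicate 2 or 4 (0.0608 to 0.131) and with the mouse as a fixed block (0.069), and Apcdd1 without R1 replicate 5 or R3 replicate 2 or 4 (0.0607 to 0.069). Of the 3 lower in R3 against R2, Apcdd1 was lost without R2 replicate 4 or 5 or R3 replicate 2 or 4 (0.0558 to 0.0656), and Myc without any 1 of the 9 arrays (0.0605 to 0.156) and with the fixed block (0.0646). Nkd2, which restrains Dishevelled, was higher by 1.23 and 1.46. Axin2, the standard readout of beta-catenin signalling, fell by 0.55 in R2 (adjusted p = 0.0106) and by 1.13 in R3 (adjusted p = 0.000128). Against R2 it fell in R3 by 0.58 (adjusted p = 0.0152), a call lost without R2 replicate 2 or 4 or R3 replicate 4 (0.0546 to 0.0622). This call of Axin2 was also lost with the mean of its probe sets (0.165). Lef1 and Axin2 thus differed from R1 in opposite directions. Of 10 planar cell polarity genes, Daam2 and Daam1, formins that link Dishevelled to actin, were higher. Daam2 was higher by 1.83 and 2.04 (adjusted p = 3.47e-05 and 1.1e-05) and Daam1 by 0.86 and 0.77. In R3 against R2, 0 of the 10 had an unadjusted p under 0.05, beside 3285 of all 18193 genes.

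**Figure D5:**
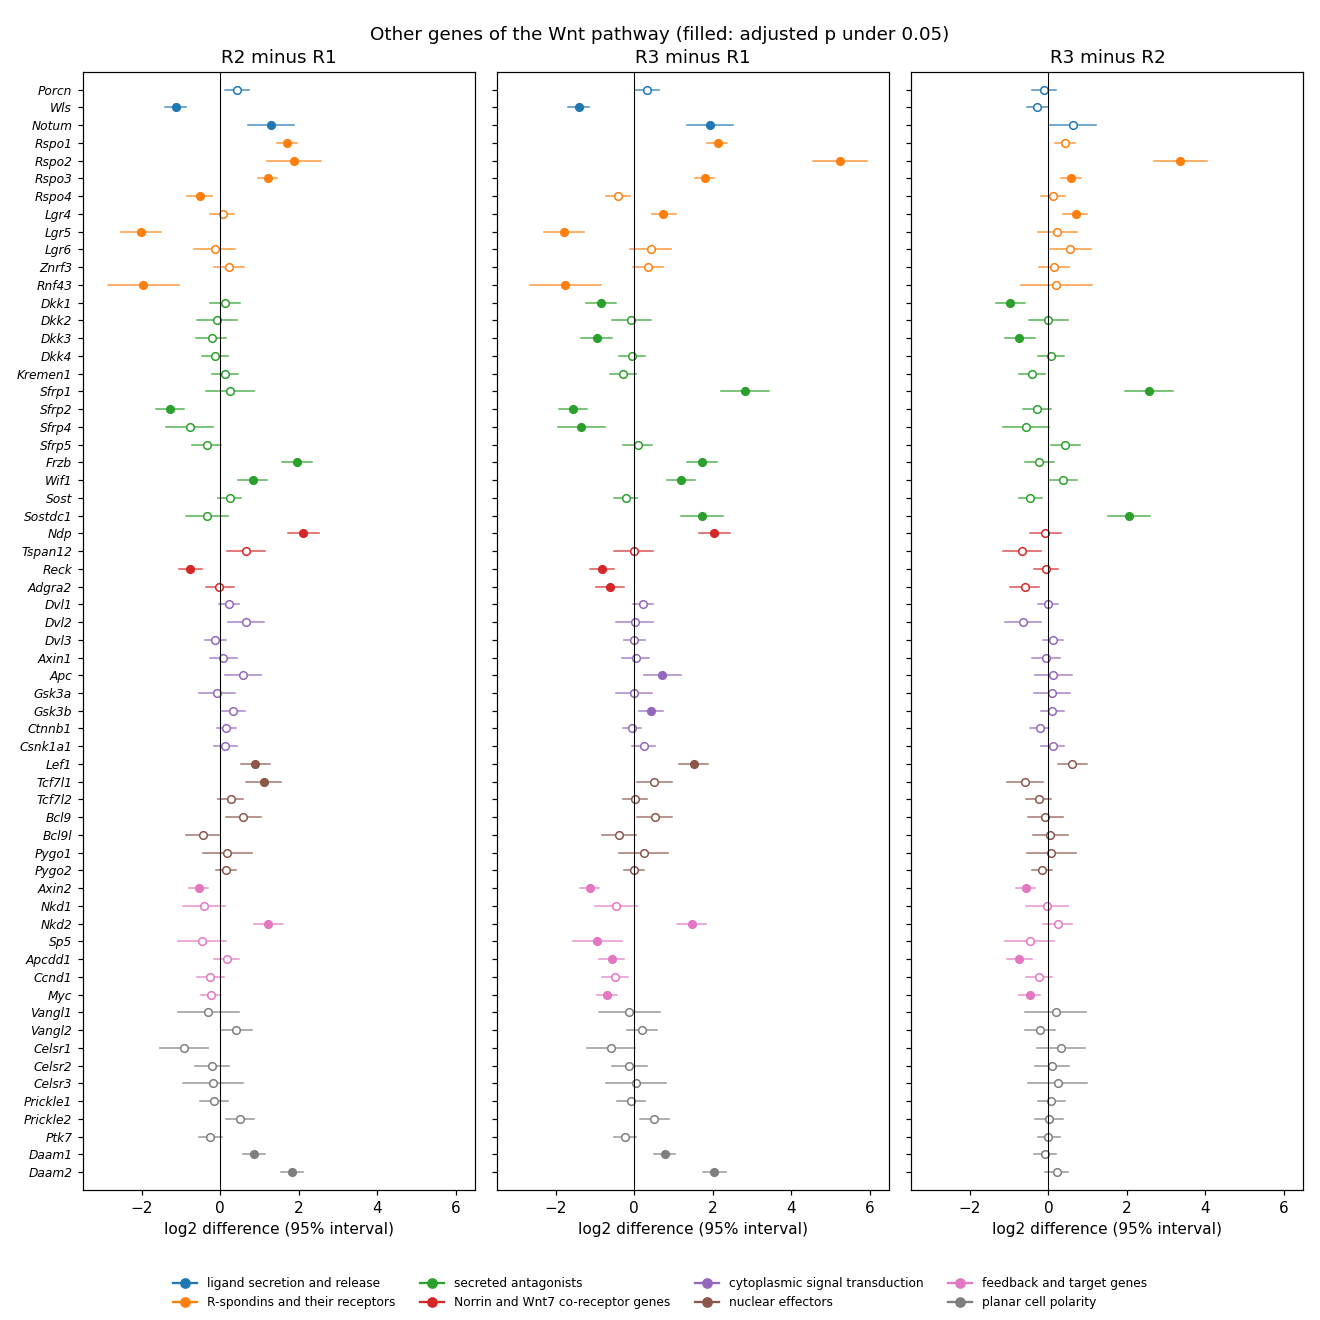
Log2 differences with 95% intervals (x axis) for 62 other Wnt pathway genes (y axis), coloured by list, in the 3 comparisons of gates; filled points have an adjusted p under 0.05. Rspo2, Sfrp1 and Sostdc1 lie farthest to the right in R3 against R2.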

How the data were processed

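Total RNA from each sorted population was amplified with the WT-Ovation Pico system, biotin-labelled and read on 1-colour arrays, per the labels' protocols. The authors deposited log2 expression values per probe set, made with RMA per the submitters' processing notes. Its version, and whether the 9 arrays were normalized as a set, are not stated in the sources used here. RMA can compress folds and gives no detection call. Of 45101 probe sets, 34958 had 1 gene symbol in the platform annotation, 932 several and 9211 none. The 34958, less controls, gave 18193 genes, each taken by its brightest probe set.

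Gates were compared with limma 3.58.1 in R 4.3.3 (1 coefficient per gate over all 9 arrays, no mouse block, 9.49 total degrees of freedom) with Benjamini-Hochberg adjustment, and checked on simulated data. For R3 against R2, the check called 6% of 50 simulated 1.5-fold changes, 76% of 2-fold and 98% of 4-fold ones. Of its 147 calls, 7 were of unchanged genes. The data gave 915 calls in this comparison, and the adjusted p depends on how many genes differ. The shares of the check therefore need not hold for the data. Small differences between these gates can still go uncalled. Standard errors are moderated. Every member is named; called members get all array values, the others ranges, and of each other list up to 3 called genes with the lowest p per comparison. Single marker genes and Sp5 were named after their values were seen. Lists and members were chosen with earlier results of these data known. Same-numbered arrays come from 1 mouse, so the numbers pair them; deviations from gate means correlated at -0.074 to 0.193 within a mouse and -0.19 to 0.117 between mice. Proteins were not used here. The mice are separate animals. The 19 alternatives were the mouse block (fixed, random), leaving out each array, the 6 arrays alone, 2 rescalings, 2 probe set rules, a filter, another variance model and a 2-fold minimum.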

Additional observations from a re-analysis of the deposited data

How the results depend on the processing

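Of 23 calls of members, 12 held under all 19 alternatives. These were the calls of Wnt5a, Fzd3, Fzd5 and Ror1 against R1 and of Fzd4 and Fzd6 in R3. The other 11 were lost under at least 1, 0 of the 23 changed sign, and 7 uncalled differences became called. All 11 had differences under 1 log2 unit, so the 2-fold minimum dropped each of them by definition. Fzd2 and Lrp6 in R3 against R1 were lost under that setting and no other. With the mouse as a block the paired counts of called members were 8, 12 and 4 (fixed or random) in R2 against R1, R3 against R1 and R3 against R2, against 8, 11 and 4 without it; beside the calls of Wnt9a, Wnt10b and Ryk given above, it changed no other member's call. Leaving out 1 array gave 4 to 6, 9 to 12 and 2 to 4 members, and 1554 to 2418, 2519 to 3240 and 582 to 841 of all genes; all genes moved by over 1.5 times without R2 replicate 4 in R2 against R1 (1554), and in R3 against R2 when R3 replicate 4 (592), R2 replicate 4 (582) or R2 replicate 2 (596) was left out. A 2-fold minimum, which asks for a larger change, gave 4, 6 and 2 members and 1083, 1476 and 509 genes. The 6 arrays of R2 and R1 alone, with fewer samples, gave 5 members. The mean of all probe sets gave 2 in R3 against R2; the cause was not tested. Rescaling moved the median of all genes by at most 0.03. Signals near the background guide, as of Wnt3, bound what can be seen.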
